A study of Mus musculus with 10 samples.

Results

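ATP-binding cassette (ABC) transporters are membrane pumps that use ATP to move lipids, sterols, bile acids, drugs, peptides and metal complexes, and mouse genes of the family are grouped by sequence into subfamilies A to G. In the small intestine they are best known for returning sterols and foreign compounds to the lumen at the brush border, for exporting conjugates across the basolateral membrane, and for feeding peroxisomes and mitochondria with substrates. Members of subfamilies E and F lack a membrane domain and act on ribosomes and in translation. Family members were taken as all gene symbols that start with Abc, a letter from a to g and a digit. The rule found 50 symbols among the 23969 of the expression table, and all 50 were single rows. Of these, 26 reached 1 FPKM (fragments per kilobase of transcript, scaled to the mapped fragments of the library) in at least 2 libraries and are called detected below, among 11454 symbols that did so in the whole table.

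The cells were sorted from the proximal jejunum of Lgr5-eGFP-IRES-CreER mice, in which GFP is made from the locus of the crypt base stem cell gene Lgr5, so all groups carried this knock-in and the libraries compared were of cells sorted as GFP-positive. Each mouse had received 1 adenovirus by intravenous injection. The Rspo1 group (3 libraries) received the R-spondin Rspo1, which strengthens Wnt signalling and is labelled as gain of function. The LGR5-ECD group (3 libraries) received the extracellular domain of the R-spondin receptor LGR5, labelled as R-spondin loss of function. The Fc group (2 libraries) received the control virus. The labels used here give neither virus dose nor time of harvest, nor the age and sex of the mice. The names of the 2 Fc columns give neither the sort nor the sample, and every value and comparison of the Fc group rests on reading them as the GFP-positive Fc cells that the series text counts. That text calls the samples biological replicates.

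The libraries were epithelial, but their marker levels differed between groups. Lgr5 had 96.4, 113 and 100.2 FPKM in Rspo1 libraries, 8.31, 2.84 and 4.28 FPKM in LGR5-ECD libraries and 40.6 and 22.0 FPKM in Fc libraries. The summed level of 14 crypt base stem cell markers was 2431 to 2595 FPKM with Rspo1, 257 to 637 FPKM with LGR5-ECD and 698 to 1450 FPKM in Fc libraries. The summed level of 28 enterocyte markers ran the other way, with 639 to 705 FPKM with Rspo1, 1694 to 1965 FPKM with LGR5-ECD and 930.0 to 975 FPKM in Fc libraries, and no marker of either list was at 0 in all 8 libraries. The 9 goblet cell markers summed to 301 to 754 FPKM with Rspo1, 820.2 to 2604 FPKM with LGR5-ECD and 323 to 937 FPKM in Fc libraries. Of them 4 were called lower with Rspo1 against LGR5-ECD, against 3.54% of all symbols. The 9 tuft cell markers summed to 15.0 to 38.4 FPKM with Rspo1, 54.3 to 65.7 FPKM with LGR5-ECD and 34.4 to 152 FPKM in Fc libraries. For both lists every Rspo1 sum was below every LGR5-ECD sum. The 9 Paneth cell markers summed to 1993 to 3345 FPKM with Rspo1, 2356 to 4907 FPKM with LGR5-ECD and only 23.1 to 707 FPKM in Fc libraries. Of 16 immune markers 3 were detected: Cd68 (1.56 to 7.48 FPKM), Lyz2 (0 to 13.2 FPKM) and Itgam (0.198 to 3.02 FPKM). The list summed to 11.2 to 14.8 FPKM with Rspo1, 9.02 to 23.2 FPKM with LGR5-ECD and 5.41 to 5.77 FPKM in Fc libraries. Cd3g, Cd4 and Gzmb were at 0 throughout. In such bulk samples fewer cells of a type and less RNA per cell cannot be told apart. The part of these marker differences in the results on ABC genes was not tested. The library LGR5-ECD 3 listed 11485 symbols above 0, against 13417 to 14197 in the other 7. The number of reads behind a value is unknown.

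Sequences just upstream of the start are shown for the called members Abca7 and Abcc5 and for the 2 gene pairs that share sequence or a promoter. They come from RefSeq (build GRCm38.p6), run 5′ to 3′ on the gene's own strand, and cover 250 bases before to 50 after the start. In the windows of Abca7 (chr10:79996244-79996543, plus strand) and Abcb1b (chr5:8797897-8798196, plus strand) capitals mark GGGCGG (GC box) and CCAAT, on either strand. In those of Abcc5 (chr16:20426345-20426644, minus strand) and Abcb1a (chr5:8566841-8567140, plus strand) they mark CTTTGA, the core letters bound by the Wnt pathway's TCF/LEF factors, on either strand. In the window of Abcg8 (chr17:84682871-84683170, plus strand) they mark the 209 bases shared with the window of its neighbour Abcg5 (chr17:84682962-84683261), which starts 110 bases away on the minus strand.
Abca7: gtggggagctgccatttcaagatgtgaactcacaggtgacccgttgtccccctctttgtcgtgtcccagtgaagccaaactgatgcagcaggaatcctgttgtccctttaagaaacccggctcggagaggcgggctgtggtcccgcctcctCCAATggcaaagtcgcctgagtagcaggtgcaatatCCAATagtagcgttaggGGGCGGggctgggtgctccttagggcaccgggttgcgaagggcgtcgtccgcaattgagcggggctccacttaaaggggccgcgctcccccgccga
Abcc5: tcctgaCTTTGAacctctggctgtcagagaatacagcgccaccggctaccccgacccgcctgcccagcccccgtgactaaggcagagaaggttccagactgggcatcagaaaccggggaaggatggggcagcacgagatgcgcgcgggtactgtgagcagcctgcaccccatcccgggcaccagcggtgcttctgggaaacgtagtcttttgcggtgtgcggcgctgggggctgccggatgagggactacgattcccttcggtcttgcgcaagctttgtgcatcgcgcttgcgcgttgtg
Abcb1a: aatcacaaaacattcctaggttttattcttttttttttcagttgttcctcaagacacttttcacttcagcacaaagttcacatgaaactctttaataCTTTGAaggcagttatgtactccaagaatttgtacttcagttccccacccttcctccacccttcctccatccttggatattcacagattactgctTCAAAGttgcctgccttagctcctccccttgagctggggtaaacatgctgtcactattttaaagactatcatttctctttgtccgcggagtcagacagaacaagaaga
Abcb1b: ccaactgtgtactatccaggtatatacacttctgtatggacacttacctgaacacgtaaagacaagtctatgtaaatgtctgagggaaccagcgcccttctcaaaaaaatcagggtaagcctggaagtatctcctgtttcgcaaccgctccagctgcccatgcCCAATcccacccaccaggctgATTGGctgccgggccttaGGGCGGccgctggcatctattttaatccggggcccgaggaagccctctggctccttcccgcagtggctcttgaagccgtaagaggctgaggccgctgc
Abcg8: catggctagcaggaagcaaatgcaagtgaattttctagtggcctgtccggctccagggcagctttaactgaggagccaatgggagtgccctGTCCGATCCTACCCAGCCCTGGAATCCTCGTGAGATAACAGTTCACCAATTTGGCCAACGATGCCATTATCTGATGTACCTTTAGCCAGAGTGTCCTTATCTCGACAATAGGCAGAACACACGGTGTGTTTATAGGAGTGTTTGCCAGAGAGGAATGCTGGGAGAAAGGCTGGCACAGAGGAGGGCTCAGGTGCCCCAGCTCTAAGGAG
The Abca7 window held 1 GC box letter match, at -46 from the start, and CCAAT at -99 and -63, and it was 60.7% G and C. The single CTTTGA of Abcc5 lay at -244, near the far end of its window. Abcb1a held CTTTGA at -153 and -58, had no GC box or CCAAT, and at 40.3% G and C had the lowest such content of the 19 detected members with a window. The window of its copy Abcb1b differed, with a GC box at -48, CCAAT at -87 and -66, and no CTTTGA. In the stretch shared by Abcg5 and Abcg8, AGATAA, the letters read by GATA factors, occurred 3 times on either strand. Across the 19 detected members CTTTGA was found in 5 windows, against 16.2% of all 27025 windows. GGGCGG was found in 10 of the 19, against 35.9% of all windows, and CCAAT in 7, against 37.9%. AGATAA occurred in 3 of the 19 (11.4% of all windows), TATAAA in 4 (14.2%) and CACGTG in 2 (7.24%), both strands being read each time. These are letter matches and were not tested as binding sites.

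The family's summed level overlapped between all 3 groups. It was 213.6, 222.8 and 211.8 FPKM in Rspo1 libraries, 236.9, 246.6 and 219.6 FPKM in LGR5-ECD libraries and 250.3 and 208.1 FPKM in Fc libraries, which was 0.0767% to 0.110% of a library's summed FPKM. A few genes made up much of the total: the 5 most abundant members held 40.6% to 44.7% of it in each library, and between 7 and 11 members reached 10 FPKM. By mean over the 8 libraries the order was led by Abcf1 at 22.5 FPKM, Abcg8 at 20.1 FPKM, Abcc3 at 18.4 FPKM and Abce1 at 15.9 FPKM. Of the 26 detected members 21 reached 1 FPKM in every library.

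**Figure D1:**
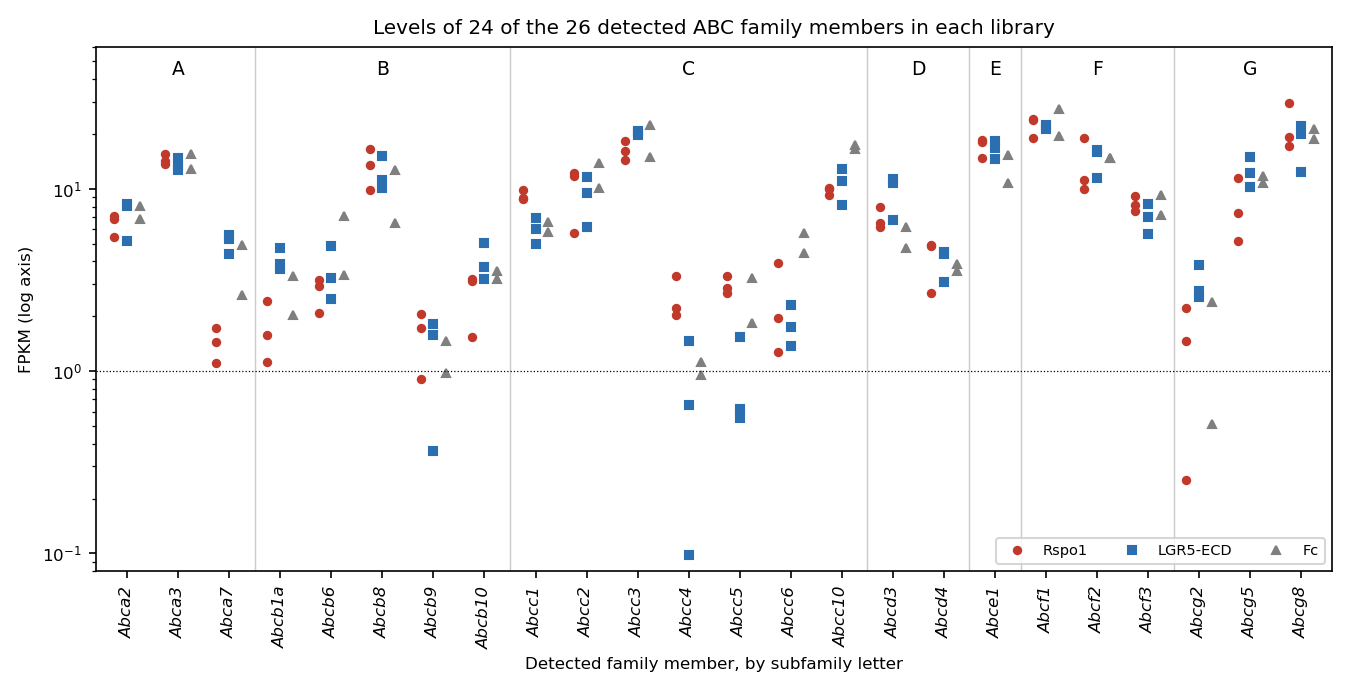
FPKM (log axis) of 24 of the 26 detected ABC members in each of the 8 libraries, arranged by subfamily, with the dotted line at 1 FPKM. Abcf1 and Abcg8 sit at the top, and Abcc4 and Abcb9 have the lowest means.

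The design compares stronger and weaker R-spondin signalling with a control. Calls among the 26 detected ABC members are given beside the shares of all symbols called. Few symbols of the whole table were called against Fc, so a lack of calls there does not set the family apart. With Rspo1 against LGR5-ECD, limma called 1 detected member higher, the exporter Abcc5, and 2 lower, among them the lipid transporter Abca7 (Benjamini-Hochberg adjusted p under 0.05 over all 11454 symbols). In the whole table, by the same test, 4.92% of symbols were called higher and 3.54% lower in the same comparison. Unadjusted p was under 0.05 for 7 of the 26, against 22.9% of all symbols. The log2 change was above 0 for 13 of the 26 with Rspo1 against LGR5-ECD (57.7% of all symbols), for 12 with Rspo1 against Fc (62.9%) and for 12 with LGR5-ECD against Fc (54.2%). With Rspo1 against LGR5-ECD the median log2 change of the 26 was -0.03, with a range of -1.33 to 1.09, and that of all symbols tested was 0.08. With Rspo1 against Fc and with LGR5-ECD against Fc no member was called in either direction. There unadjusted p was under 0.05 for 3 and 5 members, against 17.1% and 16.9% of all symbols, of which 0.672% were called higher and 0.576% lower with Rspo1, and 0.445% higher and 0.271% lower with LGR5-ECD. Under median-ratio scaling the calls over all symbols were 82 higher and 120 lower with Rspo1 against Fc, in place of 77 and 66, and 44 higher and 45 lower with LGR5-ECD against Fc, in place of 51 and 31. Both comparisons with Fc use the same 2 control libraries.

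**Figure D2:**
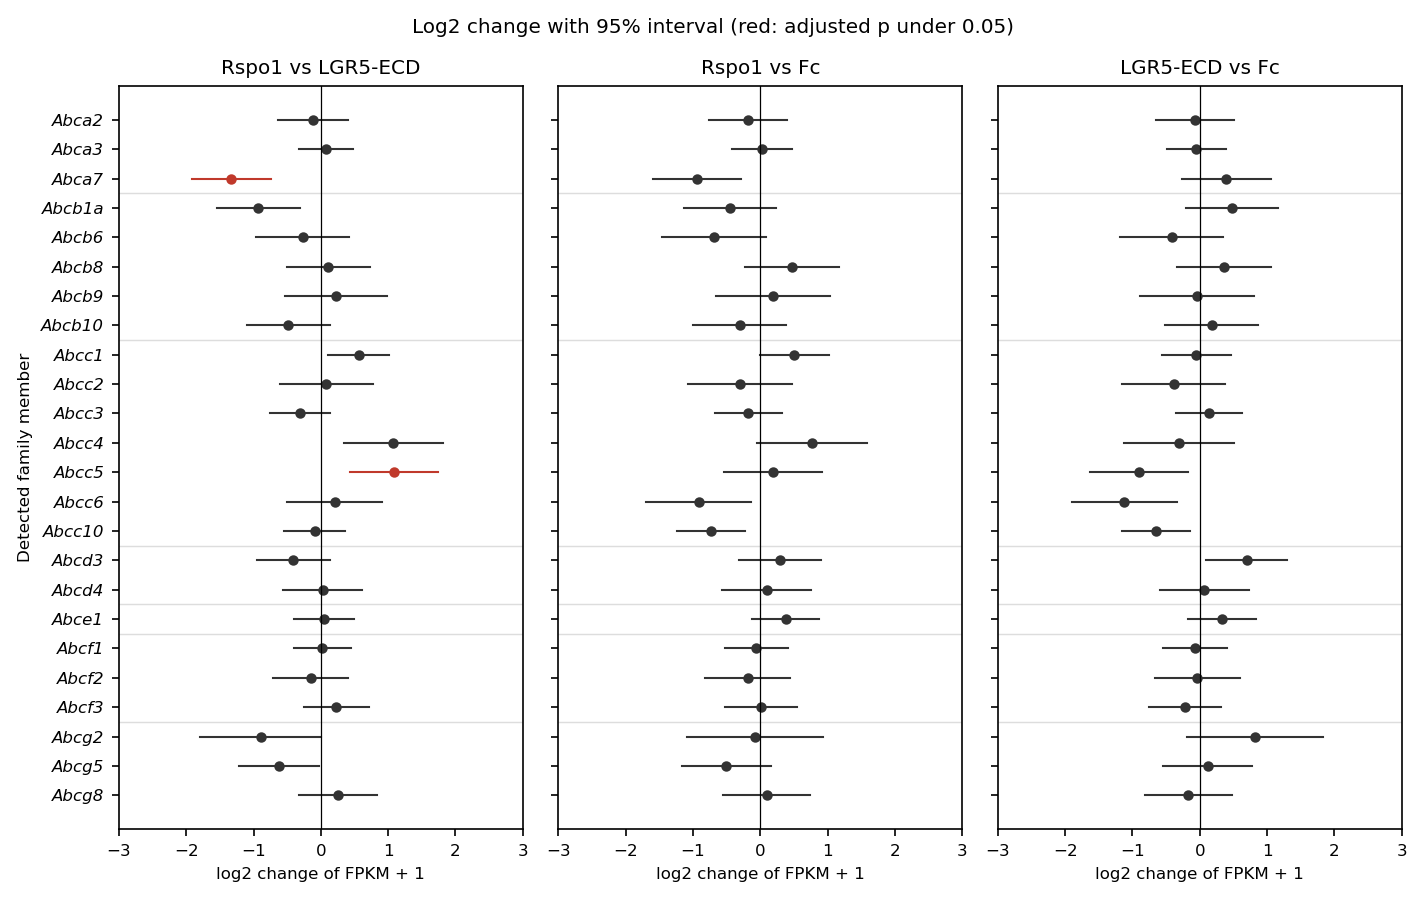
Change in log2(FPKM + 1) of 24 of the 26 detected members in the 3 comparisons, with the 95% interval from limma as bars and members past the adjusted threshold in red. The red points are Abca7 and Abcc5 with Rspo1 against LGR5-ECD, and most intervals cross 0.

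Of the organelle half-transporters in subfamily D, 3 of 4 were detected. Abcd3 (PMP70), which brings branched-chain substrates and bile acid precursors into peroxisomes, had 6.46, 7.95 and 6.20 FPKM with Rspo1, 6.71, 10.8 and 11.3 FPKM with LGR5-ECD and 6.19 and 4.71 FPKM in Fc libraries. Its LGR5-ECD libraries were all above the Fc libraries, with a log2 change of 0.70 that did not pass (SE 0.27, limma adjusted p = 0.241), while they overlapped the Rspo1 libraries. Abcd4, which serves lysosomal export of vitamin B12, stayed between 2.68 and 4.95 FPKM in the 8 libraries. Abcd2 was at most 0.0486 FPKM.

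Of the detected lipid and sterol exporters of the plasma membrane, the pair Abcg5 and Abcg8 had the highest mean FPKM, and Abca7 was the 1 that passed with Rspo1 against LGR5-ECD. Abca7 moves phospholipids and is closely related to the cholesterol exporter Abca1. Abca7 had 1.11, 1.45 and 1.72 FPKM with Rspo1, 5.60, 5.27 and 4.39 FPKM with LGR5-ECD and 2.62 and 4.90 FPKM in Fc libraries. The Rspo1 libraries were below both other groups, and the LGR5-ECD and Fc libraries overlapped. The means were 1.42 ± 0.306 FPKM with Rspo1, 5.09 ± 0.627 FPKM with LGR5-ECD (SD, n = 3 each) and 3.76 ± 1.61 FPKM in Fc libraries (SD, n = 2). Abca7 fell by 1.33 on the log2(FPKM + 1) scale with Rspo1 against LGR5-ECD (SE 0.27, limma adjusted p = 0.0127), and did not pass without Rspo1 replicate 1 (adjusted p = 0.0573) or without Rspo1 replicate 2 (adjusted p = 0.0555). Its log2 change was -0.94 with Rspo1 against Fc (SE 0.30, limma adjusted p = 0.147) and 0.39 with LGR5-ECD against Fc (SE 0.30, limma adjusted p = 0.533). Both changes against Fc moved with the Fc library kept: that with Rspo1 was -1.29 without Fc replicate 1 and -0.58 without Fc replicate 2, the library with the higher Abca7, and that with LGR5-ECD was 0.04 and 0.75.

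Abcg5 and Abcg8 form 1 pump from both proteins and send plant sterols and cholesterol back to the lumen. Abcg8 had 29.4, 19.2 and 17.3 FPKM with Rspo1, 22.1, 20.0 and 12.4 FPKM with LGR5-ECD and 21.4 and 18.7 FPKM in Fc libraries. Abcg5 had 11.5, 7.37 and 5.17 FPKM with Rspo1, 12.1, 10.3 and 14.9 FPKM with LGR5-ECD and 10.7 and 11.8 FPKM in Fc libraries. The groups of either gene overlapped, and the log2 change of Abcg5 with Rspo1 against LGR5-ECD, -0.62, did not pass (SE 0.27, limma adjusted p = 0.200). It was -0.38 without Rspo1 replicate 3 (adjusted p = 0.540) and -0.89 without Rspo1 replicate 1 (adjusted p = 0.0938). Although both genes start from the stretch shown above, their ratio was not constant. Abcg8 was 2.56, 2.60 and 3.33 times Abcg5 in Rspo1 libraries, 1.82, 1.94 and 0.835 times in LGR5-ECD libraries and 1.99 and 1.58 times in Fc libraries. This ratio was looked at after the values had been seen and was given no test; it was higher in all 3 Rspo1 libraries than in the other 5, and the library LGR5-ECD 3 alone had more Abcg5 than Abcg8. In GENCODE M21 exons of the 2 genes overlap on opposite strands, and the strand setting of the counting is not given in the sources used.

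Abca1, which loads cholesterol onto apolipoprotein A-I, lay just outside the detection rule. It had 1.73, 0.746 and 0.845 FPKM with Rspo1, 0.276, 0.0748 and 0.318 FPKM with LGR5-ECD and 0.243 and 0.297 FPKM in Fc libraries. The Rspo1 libraries were the 3 highest, and their mean FPKM was 4.97 times that with LGR5-ECD and 4.10 times that in Fc libraries, beside 0.28 and 0.379 times for Abca7. The Abca1 ratios divide by means of only 0.223 and 0.270 FPKM, where the counting error is unknown. Fitted without the filter on low values, the log2 change of Abca1 was 0.76 with Rspo1 against LGR5-ECD (SE 0.19, limma adjusted p = 0.0717) and 0.70 with Rspo1 against Fc (SE 0.21, limma adjusted p = 0.202), and neither passed. The other exporters Abcg1, Abcg4 and Abcb4 were at most 0.514, 0.307 and 0.0749 FPKM. Of the 7 exporters on this list 3 were detected. Of these, 1 (Abca7) fell with Rspo1 against LGR5-ECD, as did 3.54% of all symbols, and none passed against Fc. The other detected members of subfamily A were steady: Abca3, the surfactant lipid transporter of the lung, had 14.2, 15.5 and 13.7 FPKM with Rspo1, 12.7, 14.7 and 13.5 FPKM with LGR5-ECD and 15.5 and 12.9 FPKM in Fc libraries, and Abca2, an endosomal and lysosomal member, lay between 5.21 and 8.28 FPKM. Exons of Abca3 overlap the gene D330041H03Rik on the opposite strand in GENCODE M21, which was itself detected.

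Partner genes of sterol and lipid handling were called as well. Of 11 genes for sterol uptake, esterification and lipoproteins, 7 fell and 1 rose with Rspo1 against LGR5-ECD, against 3.54% and 4.92% of all symbols. Several of the 7 are also on the enterocyte marker list, whose sum differed between these groups. Npc1l1, the cholesterol importer of the brush border, had 11.2 to 16.8 FPKM with Rspo1, 72.3 to 82.3 FPKM with LGR5-ECD and 44.3 to 49.1 FPKM in Fc libraries, and fell by 2.48 on the log2 scale with Rspo1 against LGR5-ECD (SE 0.19, limma adjusted p = 0.000113). The gene that rose was Soat1, which esterifies cholesterol, with 42.7 to 47.5 FPKM with Rspo1, 2.64 to 7.26 FPKM with LGR5-ECD and 12.3 to 23.2 FPKM in Fc libraries (log2 change 3.12 with Rspo1 against LGR5-ECD, SE 0.31, limma adjusted p = 0.00034). Apoa1, the apolipoprotein that takes up lipid from Abca1, fell by 2.85 (SE 0.27, limma adjusted p = 0.000227). With Rspo1 against Fc, Npc1l1 and Apoa1 fell, and without Fc replicate 2 neither passed (adjusted p = 0.0527 and 0.223); Apoa1 did not pass without any 1 of the Rspo1 libraries either (0.0770 to 0.137). None of 6 tested targets of the sterol-sensing receptor LXR outside the family passed in any comparison.

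Efflux pumps of the apical membrane did not pass in any comparison. Abcb1a, P-glycoprotein, expels a wide range of drugs. It had 2.43, 1.58 and 1.12 FPKM with Rspo1, 3.86, 3.64 and 4.74 FPKM with LGR5-ECD and 3.34 and 2.04 FPKM in Fc libraries. The LGR5-ECD libraries were the 3 highest, and the Rspo1 and Fc libraries overlapped. The log2 change of Abcb1a with Rspo1 against LGR5-ECD was -0.93 (SE 0.28, limma adjusted p = 0.0667), which passed under quantile normalization alone among the settings run (adjusted p = 0.0420). Its copy Abcb1b had 0.269, 0.362 and 0.201 FPKM with Rspo1, 0.505, 0.296 and 1.42 FPKM with LGR5-ECD and 0.383 and 0.534 FPKM in Fc libraries, and so lay just outside the detection rule. Of all 30-base windows in the Abcb1a transcript 21.8% also occur in that of Abcb1b, so the split of reads between the copies is uncertain.

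Abcg2 (breast cancer resistance protein), which expels drugs and urate, had 1.47, 0.254 and 2.21 FPKM with Rspo1, 2.75, 2.54 and 3.82 FPKM with LGR5-ECD and 2.40 and 0.512 FPKM in Fc libraries. Again the 3 LGR5-ECD libraries were the highest, but the spread within the other groups was wide and unadjusted p was above 0.05 in all comparisons. Abcc2, which expels conjugates such as glucuronides, ranged from 5.74 to 13.9 FPKM with overlapping groups. A list of nuclear receptors and other regulators of ABC genes held 22, all tested. Of these, 5 fell with Rspo1 against LGR5-ECD (3.54% of all symbols) and none rose (4.92%). They included Nr1i3 (the xenobiotic receptor CAR), with 0, 0.758 and 0.527 FPKM with Rspo1, 4.34, 5.37 and 3.18 FPKM with LGR5-ECD and 4.31 and 4.96 FPKM in Fc libraries. Nr1i3 fell by 1.91 with Rspo1 against LGR5-ECD (SE 0.29, limma adjusted p = 0.00332) and by 2.02 against Fc (SE 0.33, limma adjusted p = 0.0222), the second call being lost without Fc replicate 2 (0.185) and without any 1 of the Rspo1 libraries (0.0599 to 0.0753). Hnf4g, a nuclear receptor of the differentiated gut epithelium, fell by 1.65 with Rspo1 against LGR5-ECD (SE 0.21, limma adjusted p = 0.0012), and rose by 1.24 with LGR5-ECD against Fc (SE 0.23, limma adjusted p = 0.0476), a call kept in 5 of 17 settings and lost without either Fc library (0.0563 and 0.191). Ppara, the fatty acid receptor, fell by 1.64 with Rspo1 against LGR5-ECD (SE 0.31, limma adjusted p = 0.00956; 0.0516 without Rspo1 replicate 2). Of 5 genes for bile acid and peptide uptake and exit, 4 fell in that comparison, against 3.54% of all symbols. Among them were the bile acid exporter subunit Slc51a (log2 change -3.48, SE 0.37, limma adjusted p = 0.000432), the peptide importer Slc15a1 (-1.45, SE 0.20, limma adjusted p = 0.00215) and the bile acid binding protein Fabp6 (-2.71, SE 0.46, limma adjusted p = 0.00538). Slc15a1 is also on the enterocyte marker list, whose sum differed between these groups.

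Among the 6 detected multidrug resistance-associated proteins of subfamily C other than Abcc2, Abcc5 passed with Rspo1 against LGR5-ECD and the other 5 did not. Abcc5 exports cyclic nucleotides and other organic anions. It had 2.85, 3.31 and 2.70 FPKM with Rspo1, 1.55, 0.550 and 0.618 FPKM with LGR5-ECD and 1.83 and 3.26 FPKM in Fc libraries. The LGR5-ECD libraries were the 3 lowest, while Rspo1 and Fc libraries overlapped. Abcc5 averaged 2.95 ± 0.317 FPKM with Rspo1, 0.906 ± 0.558 FPKM with LGR5-ECD (SD, n = 3 each) and 2.54 ± 1.01 FPKM in Fc libraries (SD, n = 2). It rose by 1.09 on the log2 scale with Rspo1 against LGR5-ECD (SE 0.29, limma adjusted p = 0.0465), close to the threshold. The call was lost under median-ratio scaling (adjusted p = 0.0652), with a pseudocount of 0.1 (0.0597), without LGR5-ECD replicate 2 (0.126) or 3 (0.0836), and without any 1 of the Rspo1 libraries (0.125, 0.163 and 0.126). Its log2 change was 0.19 with Rspo1 against Fc (SE 0.33, limma adjusted p = 0.814) and -0.90 with LGR5-ECD against Fc (SE 0.33, limma adjusted p = 0.210).

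Abcc4, another exporter of cyclic nucleotides, had 2.02, 2.23 and 3.31 FPKM with Rspo1, 0.0979, 0.655 and 1.47 FPKM with LGR5-ECD and 0.958 and 1.13 FPKM in Fc libraries. Its Rspo1 libraries were the 3 highest, with a log2 change of 1.08 against LGR5-ECD that did not pass (SE 0.33, limma adjusted p = 0.0742) except without LGR5-ECD replicate 3, the highest LGR5-ECD library (adjusted p = 0.0218). Abcc1, which exports glutathione conjugates, had 8.93, 8.79 and 9.88 FPKM with Rspo1, 4.97, 5.99 and 6.91 FPKM with LGR5-ECD and 6.58 and 5.78 FPKM in Fc libraries. Here too every Rspo1 library was above the other 5, with a log2 change of 0.56 against LGR5-ECD that did not pass (SE 0.21, limma adjusted p = 0.131). Abcc3, the basolateral exporter of glucuronides, had 14.3, 18.3 and 16.1 FPKM with Rspo1, 19.7, 20.5 and 20.6 FPKM with LGR5-ECD and 22.5 and 15.0 FPKM in Fc libraries. The Rspo1 libraries were below the LGR5-ECD libraries, and the 2 Fc libraries spanned nearly all of them.

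Abcc10 and Abcc6 had their highest values in the Fc libraries. Abcc10, which moves lipophilic drugs, had 10.03, 10.1 and 9.31 FPKM with Rspo1, 11.1, 12.8 and 8.16 FPKM with LGR5-ECD and 17.5 and 16.5 FPKM in Fc libraries. Abcc6, which drives release of ATP from cells and is mutated in pseudoxanthoma elasticum, had 3.91, 1.95 and 1.28 FPKM with Rspo1, 2.30, 1.38 and 1.76 FPKM with LGR5-ECD and 4.42 and 5.74 FPKM in Fc libraries. For both genes the 2 Fc libraries were above the other 6. Exons of Abcc10 overlap Dlk2 on the opposite strand in GENCODE M21, and Dlk2 had 0.118 and 1.04 FPKM in Fc libraries and was listed at 0 in the other 6; its part in the Abcc10 values was not tested. The log2 change of Abcc10 was -0.73 with Rspo1 against Fc (SE 0.23, limma adjusted p = 0.143) and -0.64 with LGR5-ECD against Fc (SE 0.23, limma adjusted p = 0.202). That of Abcc6 was -0.91 with Rspo1 against Fc (SE 0.35, limma adjusted p = 0.228) and -1.12 with LGR5-ECD against Fc (SE 0.35, limma adjusted p = 0.164). None of these 4 passed. The median of all symbols with Rspo1 against Fc was 0.16 as deposited and 0.01 under median-ratio scaling, where the log2 changes of Abcc10 and Abcc6 were -0.90 and -1.04 (limma adjusted p = 0.0586 and 0.201). The Fc libraries also had the lowest summed level of Paneth cell markers, as given above. The 11 enteroendocrine cell markers summed to 9.38 to 11.9 FPKM in Fc libraries, 24.6 to 51.1 FPKM with Rspo1 and 32.7 to 72.0 FPKM with LGR5-ECD. The part of these differences was not tested. The potassium channel subunits Abcc8 and Abcc9 were at most 0.910 and 0.365 FPKM. Of the 7 multidrug resistance-associated proteins other than Abcc2, 6 were detected. Of these, 1 was called in any comparison, higher with Rspo1 against LGR5-ECD, as were 4.92% of all symbols.

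**Figure D3:**
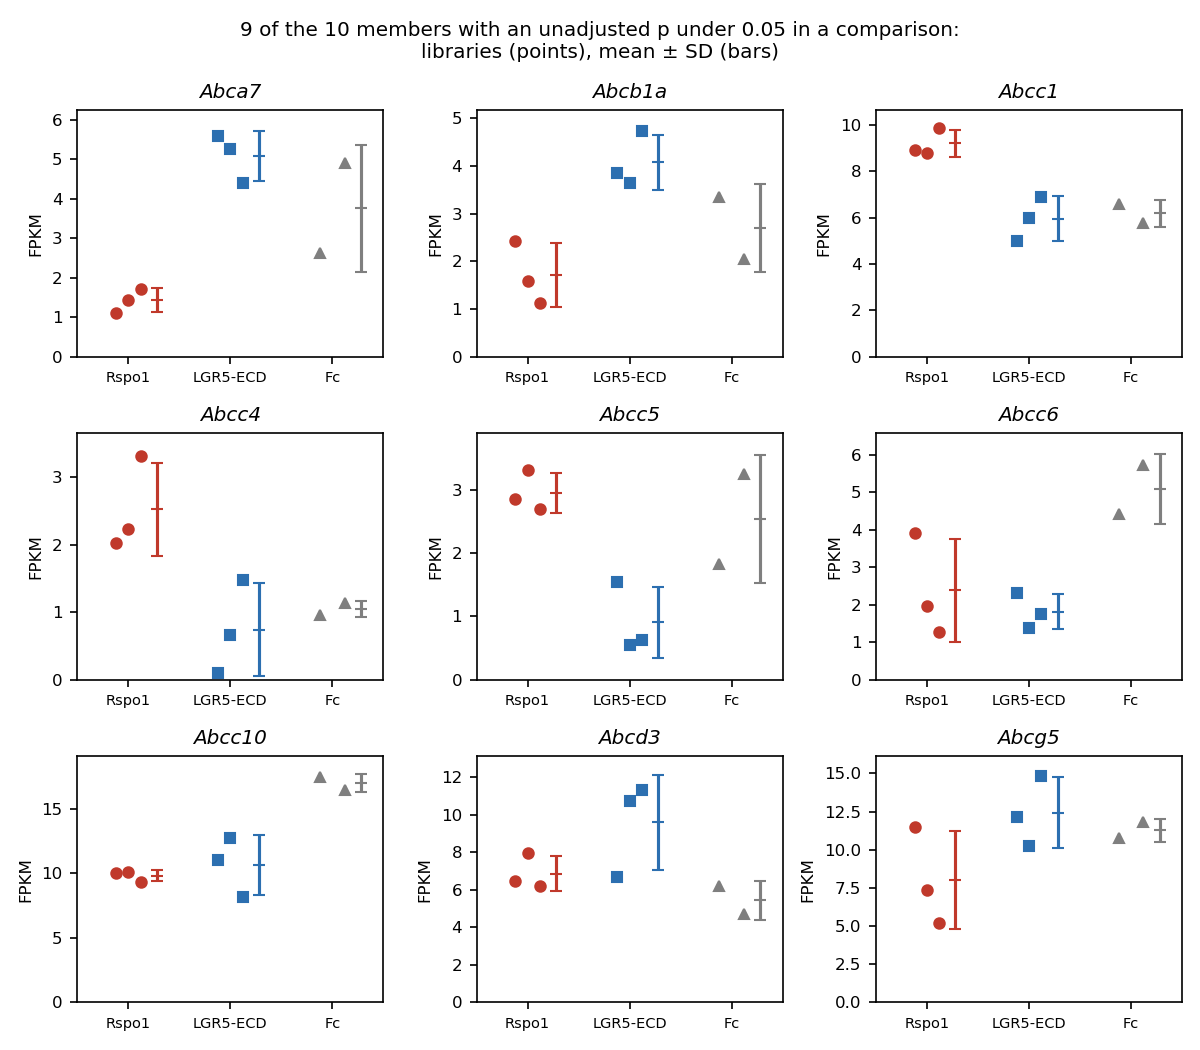
FPKM in each library (points) with the mean and SD (bars) for 9 of the 10 members with unadjusted p under 0.05 in at least 1 comparison, Rspo1 left, LGR5-ECD in the middle and Fc right. Abca7 and Abcb1a are highest in LGR5-ECD libraries by mean, Abcc5, Abcc4 and Abcc1 in Rspo1 libraries, and Abcc10 and Abcc6 in Fc libraries.

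The half-transporters of mitochondria and the cytosolic members gave no call. Abcb8, a protein of the mitochondrial inner membrane, was the most abundant of subfamily B, with 9.91, 16.5 and 13.6 FPKM with Rspo1, 10.2, 15.1 and 11.2 FPKM with LGR5-ECD and 12.7 and 6.46 FPKM in Fc libraries. All of its groups overlapped. Abcb10, which takes part in haem synthesis, ranged from 1.53 to 5.04 FPKM and the porphyrin transporter Abcb6 from 2.07 to 7.10 FPKM. The lysosomal peptide transporter Abcb9 had the lowest mean of the detected members, 1.36 FPKM. Of 12 mitochondrial iron-sulphur and haem genes, 1 fell with Rspo1 against LGR5-ECD, as did 3.54% of all symbols. It was the mitochondrial iron importer Slc25a37 (log2 change -0.92, SE 0.20, limma adjusted p = 0.0198), which did not pass without any 1 of the Rspo1 libraries (adjusted p between 0.0642 and 0.0850). None passed against Fc.

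Abce1, which splits ribosomes after termination, had 18.4, 14.8 and 18.2 FPKM with Rspo1, 16.7, 18.4 and 14.6 FPKM with LGR5-ECD and 15.4 and 10.8 FPKM in Fc libraries. Abcf1, which takes part in translation initiation, had 19.0, 24.1 and 24.0 FPKM with Rspo1, 22.3, 22.1 and 21.2 FPKM with LGR5-ECD and 27.5 and 19.5 FPKM in Fc libraries. The groups of both genes overlapped in every comparison. Abcf2 ranged from 9.94 to 19.0 FPKM and Abcf3 from 5.63 to 9.25 FPKM, also with overlapping groups. None of the 4 cytosolic members and none of 10 tested partner genes of ribosome recycling and translation control passed in any comparison.

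By subfamily letter the detected share ran from 3 of 16 symbols in A to all 3 in F and the single member of E, with 6 of 10 in B, 7 of 10 in C, 3 of 4 in D and 3 of 6 in G. Summed FPKM in subfamily C was 48.2, 56.8 and 55.1 in Rspo1, 51.9, 52.0 and 46.6 in LGR5-ECD and 68.0 and 57.9 in Fc libraries. Both Fc libraries were above the other 6 there. Subfamily G summed to 42.6, 26.8 and 24.9 FPKM with Rspo1, 37.0, 32.8 and 31.6 FPKM with LGR5-ECD and 34.8 and 31.5 FPKM in Fc libraries, subfamily B to between 18.3 and 32.5 FPKM and F to between 37.0 and 51.4 FPKM, all with overlapping groups. Subfamily A summed to 24.1, 24.8 and 21.9 FPKM with Rspo1, 27.0, 28.3 and 23.5 FPKM with LGR5-ECD and 25.2 and 26.2 FPKM in Fc libraries, so that the Rspo1 sums were below both Fc sums and overlapped those of LGR5-ECD. The median log2 change of detected members with Rspo1 against LGR5-ECD was -0.12 in A, -0.18 in B, 0.20 in C, 0.05 in E, 0.02 in F and -0.62 in G, beside 0.08 for all symbols tested. With Rspo1 against Fc it was -0.18 in A, -0.06 in B, -0.18 in C, 0.38 in E, -0.06 in F and -0.08 in G, beside 0.16 for all symbols. With LGR5-ECD against Fc it was -0.05 in A, 0.27 in B, -0.39 in C, 0.33 in E, -0.08 in F and 0.12 in G, beside 0.05 for all symbols. These subfamilies hold 1 to 7 detected members each, so these medians describe few genes and were given no test.

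**Figure D4:**
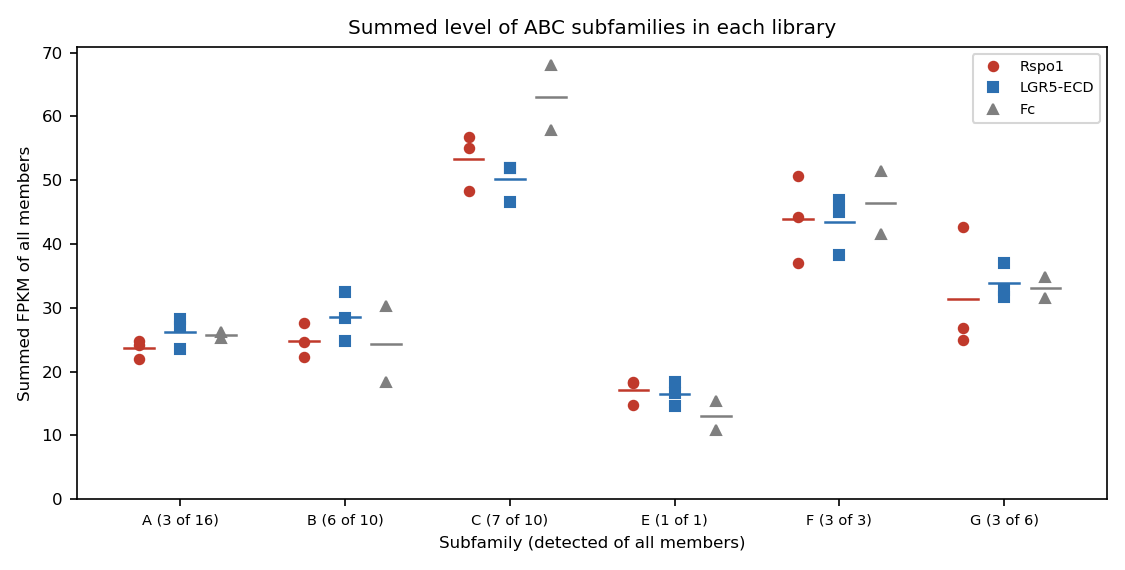
Summed FPKM of all members of subfamilies A, B, C, E, F and G in each library (points), with the group mean as a bar, Rspo1 left, LGR5-ECD in the middle and Fc right. Subfamily C is highest in the 2 Fc libraries, and in A the Rspo1 libraries lie just below the Fc libraries.

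Members whose groups did not overlap were also counted. With Rspo1 against LGR5-ECD 3 members were higher in every Rspo1 library (Abcc1, Abcc4 and Abcc5), against 18.9% of all symbols, and 5 were lower in every one (Abca7, Abcb1a, Abcc3 and Abcg2 among them), against 12.1%. With Rspo1 against Fc 3 members were higher (Abcc1, Abcc4 and Abcd3; 26.2% of all symbols) and 5 lower (Abca7, Abcb6, Abcc6 and Abcc10 among them; 12% of all symbols). For Abcd3 the lowest Rspo1 value (6.20 FPKM) and the highest Fc value (6.19 FPKM) were nearly equal. With LGR5-ECD against Fc 4 members were higher (Abcb1a, Abcd3 and Abcg2 among them; 18.2% of all symbols) and 3 lower (Abcc5, Abcc6 and Abcc10; 12.7% of all symbols).

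Of the 24 members below the detection rule 11 were listed at 0 in all 8 libraries: Abca6, Abca8a, Abca9, Abca12, Abca13, Abca15, Abca16, Abca17, Abcb5, Abcb11 and Abcg3. They include Abcb11, the bile salt export pump of the liver, and Abca12, the lipid transporter of the epidermis. The other 13 were above 0 in at least 1 library, and among them Abca1 and Abcb1b alone reached 1 FPKM, in 1 library each. Abcb1b and the channel subunit Abcc8 were nonetheless above 0 in all 8 libraries, Abcc8 at 0.0889 to 0.910 FPKM. Abca4, the retinal transporter, was above 0 in 1 library, at 0.161 FPKM.

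Of 3 ABC proteins that carry other gene names, 2 fell with Rspo1 against LGR5-ECD (3.54% of all symbols). Tap1 and Tap2 form the pump that feeds peptides to MHC class I. Tap1 had 11.3, 8.64 and 14.9 FPKM with Rspo1, 47.2, 36.6 and 26.2 FPKM with LGR5-ECD and 40.7 and 31.4 FPKM in Fc libraries. Every Rspo1 library was below the other 5, and the LGR5-ECD and Fc libraries overlapped. Tap1 fell by 1.57 with Rspo1 against LGR5-ECD (SE 0.26, limma adjusted p = 0.00467) and by 1.58 against Fc (SE 0.29, limma adjusted p = 0.0315), the second call being lost without either Fc library (adjusted p = 0.0669 without replicate 1 and 0.169 without replicate 2) and without any 1 of the Rspo1 libraries (0.0605 to 0.137). Tap2 had 4.09, 1.72 and 4.38 FPKM with Rspo1, 11.3, 8.25 and 9.13 FPKM with LGR5-ECD and 9.23 and 5.81 FPKM in Fc libraries. It fell by 1.31 with Rspo1 against LGR5-ECD (SE 0.30, limma adjusted p = 0.0244), a call lost without LGR5-ECD replicate 1 (adjusted p = 0.0711) or Rspo1 replicate 2 (0.0901), and its log2 change of -0.99 against Fc did not pass (SE 0.34, limma adjusted p = 0.180). Cftr, the chloride channel mutated in cystic fibrosis, had 22.6, 25.9 and 22.0 FPKM with Rspo1, 20.9, 17.5 and 18.4 FPKM with LGR5-ECD and 17.6 and 12.8 FPKM in Fc libraries. Its Rspo1 libraries were the 3 highest, but its log2 changes of 0.30 against LGR5-ECD (SE 0.19, limma adjusted p = 0.392) and 0.61 against Fc (SE 0.21, limma adjusted p = 0.181) did not pass.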

How the data were processed

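RNA from GFP-positive jejunal cells was sequenced in bulk, and 1 table of FPKM values made by the authors was deposited, with 24510 rows and 8 libraries. The mouse build mm9 and the tools Cufflinks, TopHat, DESeq2 and HTSeq are named, per the submitters' processing notes. Which tool made the values, with which version and strand setting, is not given in the sources used here. GFP-negative Fc cells were not used here.

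Of the rows, 27 held a date in place of a symbol and were left out, 391 identical repeats were dropped, and the rows of 89 symbols were summed. Of ratios between values under 0.3 FPKM in each of 7 libraries and in Fc replicate 1, 21.7% to 34.2% lay within 0.04 (log2) of whole-read steps at the best offset, against 11.3% to 12.8% averaged over offsets. Most did not, so no reads were recovered, no count test was run and the depth is unknown. Symbols with at least 1 FPKM in at least 2 libraries were fitted as log2(FPKM + 1), a scale that understates the change of low genes, in R 4.3.3 by limma 3.58.1 (group means without covariates, contrasts, trended eBayes) across the 8 libraries. P-values are two-sided and Benjamini-Hochberg adjusted over all symbols, with a threshold of 0.05, and SE is the moderated standard error. On simulated data with normal noise, 200 of 11454 genes were changed for each comparison, drawn from genes above a minimum mean level. The steps called 20% of genes given a log2 change of 1 with Rspo1 against LGR5-ECD, and 85% at 2. With Rspo1 against Fc these shares were 17% and 72%, and with LGR5-ECD against Fc 14% and 75%. A member that did not pass may therefore still have changed. The shares do not cover low members such as Abcb9 and Abcc4, which lay below that minimum. With Rspo1 against LGR5-ECD more symbols were called in the data than were changed in the simulation, so the shares need not hold there. Tables used pandas 2.3.3 and NumPy 2.4.6, and figures matplotlib 3.10.9, in Python 3.11.15.

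Members, gene lists and tests were chosen with earlier results of these data known. The rule for named genes gave each library's value for called members and for the most abundant member of a subfamily, and, of partner lists, up to 3 called genes with the smallest p. A few members and partner genes are not reported here. Library values of further members were added after their values had been seen. Alternatives were another pseudocount, other filters and scalings, other limma settings, summing all repeated rows, fitting only the groups compared, a replicate block and leaving out each library. Promoter windows, the first listed per gene, were found for 38 of the 50 members. Overlaps of exons come from GENCODE M21, by name only, since its build is not that of the table.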

Additional observations from a re-analysis of the deposited data

How the results depend on the processing

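Abca7 was called lower with Rspo1 against LGR5-ECD in 16 of 18 settings. Its log2 change was below 0 in all 18 (-1.78 to -1.23, limma adjusted p 0.00941 to 0.0573). Abcc5 was called higher in 7 of 17 settings (limma adjusted p 0.0308 to 0.163 over the 17). The count of members called higher in that comparison was 0 in place of 1 with a pseudocount of 0.1, with no filter on low values, with a filter at 5 FPKM (where Abcc5 was not tested), with median-ratio scaling, with quantile normalization and with the replicate block; the cause was not tested. Leaving out each library gave 0 to 1 members called higher and 1 to 2 called lower; without LGR5-ECD replicate 3 the 1 called higher was Abcc4 in place of Abcc5. The count lower was 3 under quantile normalization, with Abcb1a. With Rspo1 against Fc and LGR5-ECD against Fc the counts were 0 in every setting. The log2 change of Abcc5 with Rspo1 against Fc was -0.11 without Fc replicate 1 and 0.48 without Fc replicate 2. Calls over all symbols, 563 higher and 405 lower with Rspo1 against LGR5-ECD, ranged over the settings from 215 to 613 higher and 183 to 541 lower. With Rspo1 against Fc they were 77 and 66, ranging from 7 to 386 higher and 13 to 173 lower, with 386 and 95 without Fc replicate 1 and 11 and 13 without Fc replicate 2. With LGR5-ECD against Fc they were 51 and 31, ranging from 0 to 153 higher and 0 to 56 lower, with 153 and 21 without Fc replicate 1 and 0 and 0 without Fc replicate 2. Treated libraries showed no sign of pairing by replicate number: deviations of same-numbered Rspo1 and LGR5-ECD libraries correlated at -0.02, -0.02 and -0.05 across genes. With 3 libraries per group this check cannot exclude a shared batch. With the replicate block the limma adjusted p was 0.0425 for Abca7 and 0.0973 for Abcc5. No such fit was made against Fc, whose columns carry no number tied to a sample. Without read depth, values near or below 1 FPKM (Abca1, Abcc4, Abcc5, Abcb9, Abcg2, and Abca7 and Abcb1a with Rspo1) carry an unknown counting error. The 2 Fc libraries leave the comparisons with Fc the least precise.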
